A study of Mus musculus with 6 samples.

Results

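The immunoproteasome and class I antigen presentation genes were described in gastrocnemius (Gas) muscle of mice that lack the microRNA miR-92b. They are 10 genes chosen by name and function, with earlier results of these data known: Psmb8, Psmb9, Psmb10, Psme1, Psme2, Tap1, Tap2, Tapbp, B2m and H2-K1. All 10 are among the 34714 gene symbols of the count table, and all 10 passed the filter on low counts that left 15788 genes for testing. The study used 3 WT and 3 M92KO mice, with 1 RNA-seq library for each mouse. WT mice were age-matched C57BL/6 animals and M92KO mice carried a homozygous global deletion of miR-92b made in C57BL/6JGpt, so the gene was absent from every cell type and not only from muscle fibres. The mice of both groups were males 8 weeks old, and no treatment of them is named in the sources used here. The paper's general methods state that all mice fasted overnight before muscle was taken, without naming the sequenced mice separately. The sources used here do not describe the WT mice as littermates of the M92KO mice.

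Proteasomes cut cellular proteins into peptides. When cells meet interferon, and in immune cells at rest, the catalytic subunits of the constitutive core are replaced by the immunoproteasome subunits encoded by Psmb8, Psmb9 and Psmb10, which favour cuts that suit class I binding. The PA28 activator, built from the products of Psme1 and Psme2, opens the core. TAP, a dimer of the Tap1 and Tap2 proteins, carries the peptides into the endoplasmic reticulum, where tapasin (Tapbp) helps load them on a class I heavy chain such as H2-K1, paired with beta-2-microglobulin (B2m). Resting muscle fibres are known for low class I levels, and the regulator Nlrc5 and the factor Irf1 are known to switch these genes on.

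The deleted microRNA gives 2 mature strands, shown because their seeds (bases 2 to 8, in capitals) define the matches searched for in the 10 genes. The sequences are from RefSeq and lie on the minus strand of GRCm38.p6, at chr3:89227126-89227147 for the 3p strand and chr3:89227165-89227188 for the 5p strand.
miR-92b-3p: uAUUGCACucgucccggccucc
miR-92b-5p: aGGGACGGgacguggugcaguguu
Annotated 3′-UTRs of the 10 genes held 0 matches of 7 bases to either seed (GTGCAAT for 3p and CCGTCCC for 5p, sense strand). Over all 20095 genes with a 3′-UTR, 7.11% held the first and 3.14% the second. The shorter 6-base match to 3p, TGCAAT, was present in 1 of the 10 genes, Tap1, and in 26.0% of all genes, while the 6-base match to 5p, CGTCCC, was present in 0 of the 10 and in 8.0% of all genes. The longest annotated 3′-UTRs of the 10 genes ran from 44 bases in Psme2 to 1141 bases in Tapbp, so several of these windows were short.

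Libraries held between 33160508 and 48209846 counts. Values are CPM, counts scaled to library size after TMM normalization, given as mean ± SD over 3 mice. The M92KO library of mouse 1 stood apart over all genes tested. It had the highest CPM of the 6 libraries in 25.1% of them and the lowest in 25.3%. Each other library had the highest in 11.4% to 17.1%. The values of the 10 genes without M92KO mouse 1 are given below, together. The deleted microRNA was not analysed here, and no direct check of the genotype is given.

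0 of the 10 genes differed between the genotypes at an adjusted p-value under 0.05 by edgeR's quasi-likelihood test, and 0 of 10 at an unadjusted p-value under 0.05. Over all 15788 genes tested, 0.0% passed the adjusted and 12.4% the unadjusted threshold. DESeq2's Wald test and limma on quantile-normalized values also gave 0 of 10 at either threshold. Over all genes, DESeq2 called 312 adjusted and 1722 unadjusted of 15788, and limma called 42 adjusted and 2287 unadjusted of 34714. Adjusted p-values of the 10 genes from edgeR lay between 0.526 and 0.968, and the median log2 fold change was 0.10, beside -0.0001 over all genes tested. The 3 values of each genotype did not overlap in 1 of the 10 genes, B2m, and in 18.4% of all genes tested. In contrast, the 10 genes shared 1 feature of a single animal: M92KO mouse 1 had the highest CPM in 10 of 10, beside the 25.1% of all genes. This count was not planned but made after the values were seen, so it is a description of 1 animal and not a test.

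**Figure D1:**
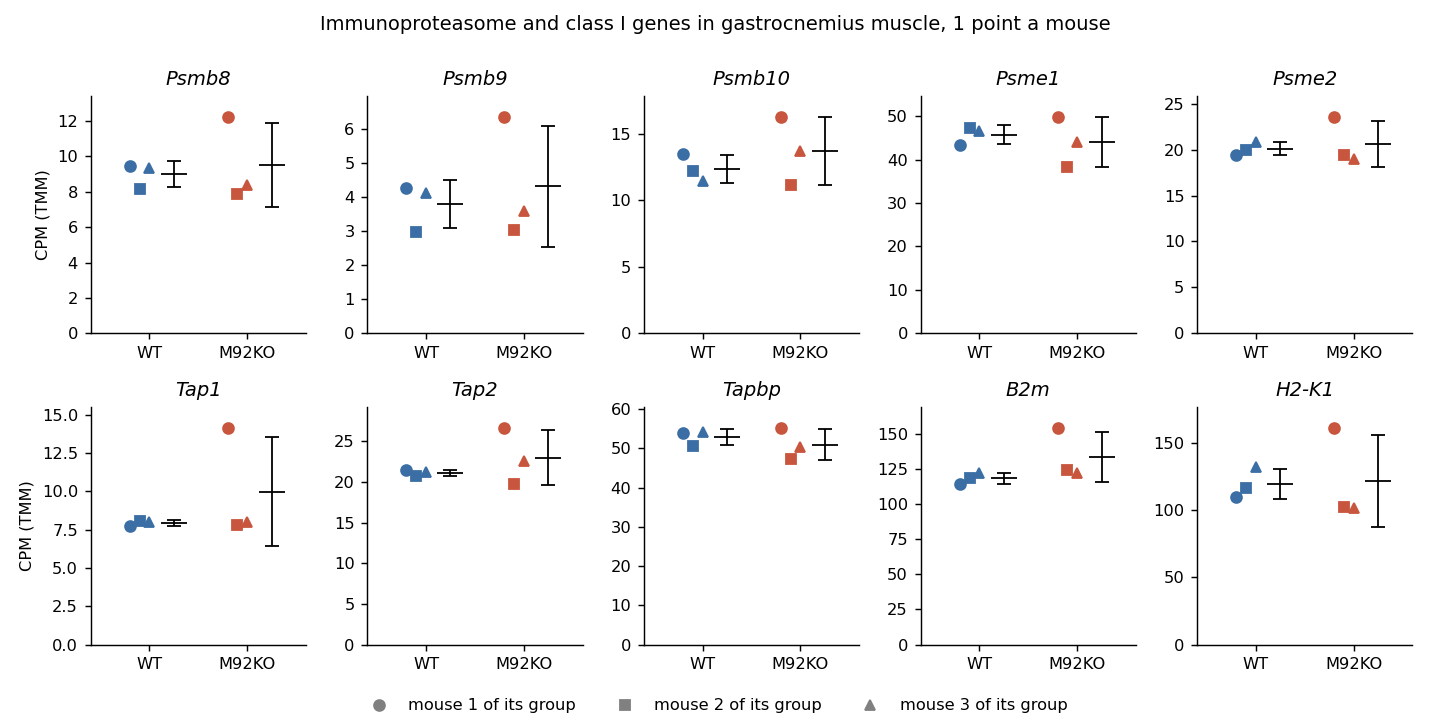
CPM (y axes, each starting at 0) of the 10 genes in each of the 6 mice. Blue points are WT and red points are M92KO mice, the symbol gives the mouse number within its group, and the bars are the mean and SD of 3 mice. M92KO mouse 1 (red circle) is the highest point in all 10 panels, and the other M92KO mice both lie above the WT points in B2m, both below them in Psme2, Tapbp and H2-K1, and otherwise at least partly among them or on both sides.

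Of the immunoproteasome catalytic subunits, Psmb8, which encodes the chymotrypsin-like subunit beta5i, had 9.46, 8.16 and 9.37 CPM in WT and 12.2, 7.88 and 8.37 CPM in M92KO mice 1, 2 and 3. The first M92KO mouse lay above, the second below and the third within the WT range, so the groups overlapped. Means were 8.99 ± 0.728 CPM in WT and 9.49 ± 2.37 CPM in M92KO muscle (SD, n = 3 each). The fitted change was 0.08 on the log2 scale (95% confidence interval -0.31 to 0.47, standard error 0.17, adjusted p = 0.901 by edgeR). Psmb8 occupies chromosome 17 from 34197721 to 34201454 (GRCm38, plus strand), and its exons overlap Gm20496 on the opposite strand. The RefSeq promoter window of Psmb8, 250 bases before to 50 after the start, holds the only gamma-activated site among the 9 genes with such a window (TTCNNNGAA, a palindrome bound by STAT dimers, in a window of 9.55% of all genes). It is shown in capitals, 97 to 89 bases before the start, at chr17:34198078-34198126 on the plus strand. This stretch lies inside the gene bounds given above, which are from GENCODE and begin upstream of the RefSeq start.
Psmb8 promoter: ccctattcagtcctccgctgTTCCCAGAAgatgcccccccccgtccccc

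Psmb9, which encodes the subunit beta1i, was the lowest of the catalytic genes in CPM. It had 4.26, 2.98 and 4.11 CPM in the WT mice and 6.34, 3.02 and 3.58 CPM in the M92KO mice. The first M92KO value stood 1.49-fold above the highest of the others, whereas the other two lay inside the WT range. Means were 3.78 ± 0.702 CPM in WT and 4.31 ± 1.77 CPM in M92KO (SD, n = 3), which edgeR fitted as 0.19 on the log2 scale (95% interval -0.45 to 0.82, standard error 0.28, adjusted p = 0.836). Without M92KO mouse 1 the sign turned, to -0.20. Psmb10, which encodes beta2i and lies on the minus strand of chromosome 8 from 105935735 to 105938444, had 13.5, 12.2 and 11.5 CPM in WT and 16.3, 11.2 and 13.7 CPM in M92KO mice. The M92KO group thus held both the highest and the lowest value. Psmb10 averaged 12.4 ± 1.05 CPM in WT and 13.7 ± 2.55 CPM in M92KO (SD, n = 3), a log2 fold change of 0.15 (95% interval -0.17 to 0.47, standard error 0.14, adjusted p = 0.727 by edgeR).

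Each immunoproteasome subunit was also set against the constitutive subunit that it replaces, within each library, as a ratio of counts per kilobase of the longest annotated transcript. Psmb8 stood at 4.08%, 3.45% and 3.62% of Psmb5 in WT and at 4.44%, 3.63% and 3.39% in M92KO mice. The ratio of Psmb9 to Psmb6 was 2.32%, 1.62% and 2.09% in WT and 2.99%, 1.63% and 1.98% in M92KO mice. For Psmb10 and Psmb7 it was 5.11%, 4.53% and 4.23% in WT and 5.31%, 4.08% and 4.80% in M92KO mice. In these whole muscles the transcripts of the constitutive subunits were therefore the far more abundant ones, and M92KO mouse 1 had the highest of the 6 ratios for each pair. The differences between the genotypes were 0.03, 0.10 and 0.03 on the log2 scale, all smaller than the spread between mice (two-sided exact permutation tests, p = 0.8 for each of 3 ratios, adjusted p = 0.8, smallest possible p = 0.1). Without M92KO mouse 1 they were -0.08, -0.15 and -0.06. The constitutive genes themselves had log2 fold changes of 0.02 for Psmb5, 0.04 for Psmb6 and 0.11 for Psmb7, with adjusted p-values from edgeR of 0.947, 0.897 and 0.584. In Psmb7 the M92KO values (271.1, 242.1 and 253.6 CPM) all lay above the WT values (234.4, 238.1 and 239.8 CPM). The groups did not overlap, in either direction, in 18.4% of all genes tested.

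**Figure D2:**
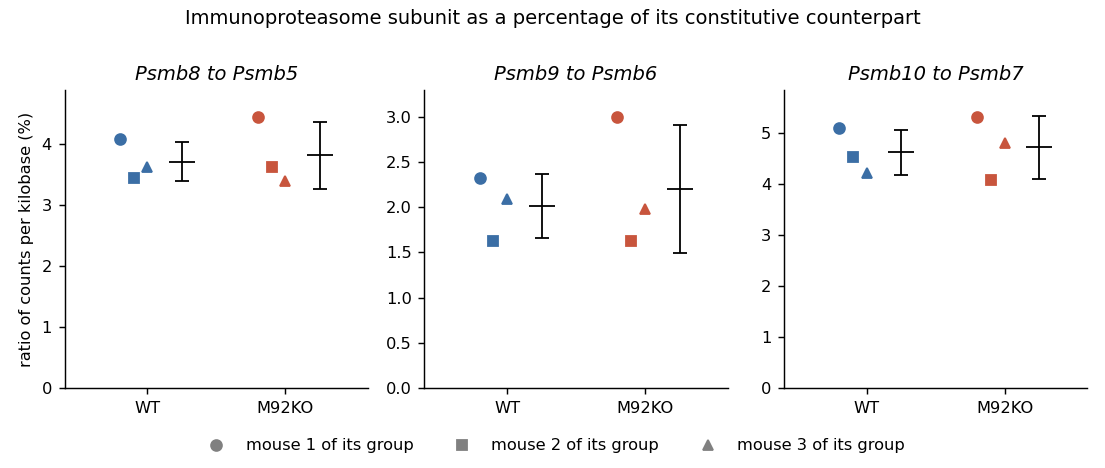
Counts per kilobase of each immunoproteasome subunit as a percentage of its constitutive counterpart (y axes, starting at 0) in WT (blue) and M92KO (red) mice, with the mean and SD of 3 mice. The percentages lie between 1.62% and 5.31%, the genotypes overlap in each panel, and M92KO mouse 1 is highest in each.

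Of the PA28 genes, Psme1 had 43.3, 47.4 and 46.7 CPM in WT and 49.8, 38.4 and 44.0 CPM in M92KO mice. M92KO mice supplied both the highest and the lowest of the 6 values. The WT mean was 45.8 ± 2.16 CPM (SD, n = 3) and the M92KO mean 44.1 ± 5.70 CPM (SD, n = 3), and the fitted log2 fold change was -0.05 (95% interval -0.28 to 0.17, standard error 0.098, adjusted p = 0.866 by edgeR). Psme2 had 19.5, 19.9 and 20.9 CPM in WT and 23.5, 19.4 and 19.0 CPM in M92KO mice. Here the first M92KO mouse was above, and the other two below, every WT mouse. Psme2 averaged 20.1 ± 0.721 CPM in WT and 20.6 ± 2.51 CPM in M92KO (SD, n = 3), a log2 fold change of 0.04 (95% interval -0.19 to 0.27, standard error 0.0995, adjusted p = 0.915 by edgeR). Both genes lie on chromosome 14 of GRCm38, Psme1 on the plus strand from 55578123 to 55581529 with exons that overlap Emc9, and Psme2 on the minus strand from 55587441 to 55591113.

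Tap1 showed the widest gap between M92KO mouse 1 and the rest. It had 7.71, 8.08 and 7.98 CPM in WT and 14.1, 7.82 and 8.02 CPM in M92KO mice. The WT mice and the other two M92KO mice lay between 7.71 and 8.08 CPM, and M92KO mouse 1 was 1.75-fold above the highest of them. The WT mean of 7.92 ± 0.193 CPM (SD, n = 3) and the M92KO mean of 9.98 ± 3.58 CPM (SD, n = 3) gave a log2 fold change of 0.33 (95% interval -0.16 to 0.83, standard error 0.22, adjusted p = 0.593 by edgeR), and without M92KO mouse 1 it was -0.0008. Tap2 had 21.5, 20.7 and 21.2 CPM in WT and 26.6, 19.8 and 22.6 CPM in M92KO mice. M92KO mice 1 and 3 were above, and mouse 2 was below, the WT range. Tap2 averaged 21.2 ± 0.392 CPM in WT and 23.0 ± 3.41 CPM in M92KO (SD, n = 3), a fitted log2 change of 0.12 (95% interval -0.13 to 0.37, standard error 0.11, adjusted p = 0.707 by edgeR). Tapbp was nearly level, at 53.9, 50.5 and 54.3 CPM in WT and 55.1, 47.3 and 50.4 CPM in M92KO mice. Its means were 52.9 ± 2.05 CPM and 50.9 ± 3.92 CPM (SD, n = 3), and the log2 fold change was -0.05 (95% interval -0.23 to 0.12, standard error 0.076, adjusted p = 0.828 by edgeR).

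Psmb9, Tap1, Psmb8 and Tap2 form a compact block on chromosome 17 of GRCm38, from 34181987 to 34216321, inside the major histocompatibility complex. Psmb9 and Tap1 are divergent neighbours, with 225 bases between their RefSeq starts, and this shared stretch is printed because they were the pair with the largest steps in M92KO mouse 1. It runs from Psmb9 (left) to Tap1 (right) on the plus strand at chr17:34187331-34187555, with a Y box, CCAAT on either strand, in capitals. The stretch lies within the GENCODE bounds of Psmb9, which reach to 34187764.
Psmb9 to Tap1: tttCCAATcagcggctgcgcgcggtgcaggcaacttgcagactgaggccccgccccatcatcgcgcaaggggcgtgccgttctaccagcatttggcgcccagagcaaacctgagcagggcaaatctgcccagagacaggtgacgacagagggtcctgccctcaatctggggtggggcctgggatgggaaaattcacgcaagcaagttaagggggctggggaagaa
The Y box was present in 5 of the 9 promoter windows (Psmb9, Tap1, Tapbp, B2m and H2-K1) and in those of 41.1% of all genes with a window. Psmb9 and Tap1 share a single site, the one shown. Annotated exons of Psmb9 and Tap1 overlap on opposite strands, as do those of Tap2 with Gm15821 and Gm20496 and those of Tapbp with Gm19412, while Tapbp also overlaps Zbtb22 on the same strand. Whether the counting used strand is not given in the sources used here, so reads of such overlaps cannot be told apart.

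Of the class I chains, B2m had 114.5, 119.1 and 122.4 CPM in WT and 154.1, 124.2 and 122.5 CPM in M92KO mice. B2m was the 1 gene of the 10 whose M92KO values all lay above the WT values, though mouse 3 of each group had nearly the same value. The means were 118.7 ± 3.98 CPM in WT and 133.6 ± 17.8 CPM in M92KO (SD, n = 3). The log2 fold change of B2m was 0.17 (95% interval -0.05 to 0.39, standard error 0.096, adjusted p = 0.526 by edgeR), and the two-sided exact permutation test gave p = 0.1, the smallest value it can give. B2m occupies chromosome 2 from 122147686 to 122153083 (plus strand), with 0 overlapping genes. Its promoter window holds an interferon-stimulated element core (GAAANNGAAA, either strand), as does that of Psme1. This motif was present in 2 of the 9 genes and in a window of 3.99% of all genes. In B2m it lies 139 to 130 bases before the start, in capitals in the stretch at chr2:122147528-122147577 on the plus strand.
B2m promoter: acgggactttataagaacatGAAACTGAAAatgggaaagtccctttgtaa

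H2-K1 had 109.9, 116.0 and 131.6 CPM in WT and 160.5, 102.1 and 101.4 CPM in M92KO mice. M92KO mouse 1 was above every WT mouse, and M92KO mice 2 and 3 were below every WT mouse. Averages were 119.2 ± 11.2 CPM in WT and 121.3 ± 33.9 CPM in M92KO (SD, n = 3), so the spread in M92KO was larger than the difference. The log2 fold change was 0.03 (95% interval -0.37 to 0.42, standard error 0.17, adjusted p = 0.968 by edgeR). H2-K1 lies on the minus strand of chromosome 17 from 33996017 to 34000347 and belongs to a family of similar genes with H2-D1 and the H2-Q genes, so its count is uncertain where reads could be assigned to several of them. Exact permutation tests of the 9 genes other than B2m gave p-values between 0.5 and 1.0.

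Levels can be compared between genes per kilobase of transcript. In WT muscle, B2m stood at 138 CPM per kb and H2-K1 at 73.6, above Psme1 at 41.2. Psme2 at 20.9 and Tapbp at 18.3 followed, then Psmb10 at 9.45, Tap2 at 6.15 and Psmb8 at 5.52 CPM per kb. Psmb9 at 2.80 and Tap1 at 2.68 CPM per kb closed the order, and only these neighbours overlapped between mice, the values of each other pair of neighbours being separate in the 3 WT mice. On the same scale the constitutive subunits stood level with or above B2m and far above the immunoproteasome subunits, at 148.8 for Psmb5, 138.9 for Psmb6 and 204.7 CPM per kb for Psmb7.

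Without M92KO mouse 1, 7 of the 10 log2 fold changes were below 0 and their median was -0.09. The sign turned in Psmb8 (from 0.08 to -0.15), Psmb9 (from 0.19 to -0.20), Psme2 (from 0.04 to -0.07), Tap1 (from 0.33 to -0.0008) and H2-K1 (from 0.03 to -0.23). H2-K1 was then lower in M92KO mice at an unadjusted p-value under 0.05, at -0.23 on the log2 scale (standard error 0.079, adjusted p = 0.183 by edgeR), beside 8.96% of 16058 genes lower at that threshold. The groups of 3 and 2 mice did not overlap in 4 of 10 genes (B2m above, and Psme2, Tapbp and H2-K1 below the WT values), beside 37.4% of all genes tested. The summed CPM of the 10 genes was 397.5, 405.0 and 429.9 in WT, 518.5 in M92KO mouse 1, and 381.1 and 393.6 in the other M92KO mice.

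**Figure D3:**
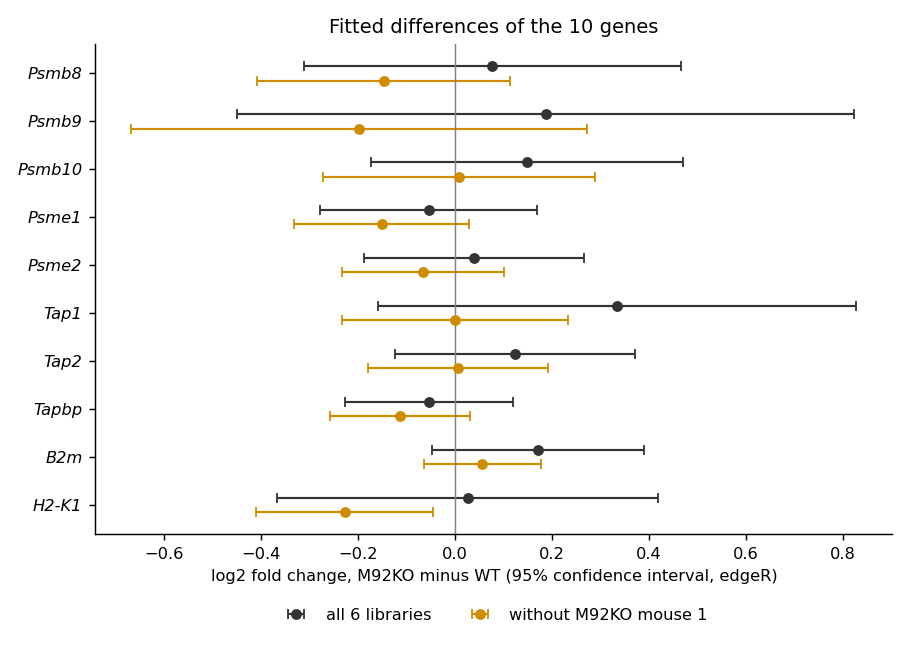
Fitted log2 fold change (x axis, M92KO minus WT) with its 95% confidence interval from edgeR for the 10 genes, with all 6 libraries (black) and without M92KO mouse 1 (orange). All 10 black intervals span 0, and in orange the interval of H2-K1 lies below 0, centred on -0.23.

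The CPM of M92KO mouse 1 exceeded that of the highest other mouse by 1.02-fold in Tapbp, 1.05-fold in Psme1, 1.13-fold in Psme2, 1.18-fold in both Psmb10 and Tap2, 1.22-fold in H2-K1, 1.24-fold in B2m and 1.29-fold in Psmb8, besides Psmb9 and Tap1 above. The median of the 10 ratios was 1.202, beside 0.879 over all genes tested. A ratio above 1.2 was found in 5 of the 10 genes and in 4.79% of all genes. This cutoff was not planned and lies next to the median of the 10 ratios. The 5 of 10 therefore follows from where the cutoff lies. With DESeq2's size factors or quantile normalization, mouse 1 was again highest in 10 of 10. After correction of each library for its trends with GC and length, it was highest in 8 of 10 (beside 23.7% of all genes), with ratios of 0.921 for Psme1 and 0.973 for Tapbp and of 1.64 for Tap1 and 1.33 for Psmb9. The median ratio was then 1.12, and 2 of the 10 genes and 4.38% of all genes exceeded 1.2. These ratios compare 1 animal with 5 and carry no test.

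Other genes of the pathway were taken from hand-written lists, 118 in all, of which 112 were tested. At an unadjusted p-value under 0.05, 11 were higher and 3 lower in M92KO muscle by edgeR, beside 863 higher and 1092 lower of all 15788 genes tested. Both directions together are close to the 12.4% of all genes tested, with the larger part higher here and lower over all genes. An adjusted p-value under 0.05 was found for 0 of the 112 (1 by DESeq2, Psma1, and 0 by limma). Without M92KO mouse 1 these numbers were 19 higher, 8 lower and 2 adjusted (Psma1 and Jak1), beside 1545 higher, 1439 lower and 401 adjusted of 16058 genes in that fit. Without WT mouse 1, 3 were higher, beside 663 of 15955 genes, and without WT mouse 2, 4 were higher, beside 531 of 15970 genes. Of the 21 genes outside the 10 that are named below for an unadjusted p-value under 0.05, 4 (Psma1, Tie1, Dcn and Col1a2) stayed under it with every library left out in turn. Without M92KO mouse 1, 6 of the 21 lost it (H2-Q1, Rfx5, Ddx58, H2-Eb1, Cd14 and Col1a1).

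The constitutive core subunits outside the catalytic trio accounted for 6 of the 11. All 11 had a log2 fold change above 0, with a median of 0.16, and 10 of 11 had every M92KO mouse above every WT mouse. Over all 15788 genes tested, 7891 had a log2 fold change above 0 and 1385 had every M92KO mouse above every WT mouse. Psma1, an alpha ring subunit, had 97.51, 98.46 and 97.98 CPM in WT and 111.3, 120.1 and 124.6 CPM in M92KO mice (log2 fold change 0.28, standard error 0.066, adjusted p = 0.188 by edgeR). In Psma1, M92KO mouse 1 was the lowest of the M92KO group. Over the whole core, however, M92KO mouse 1 was the highest of the 6 in 5 of these 11 subunits, Psmb2 and Psma4 among them, and in 3 of 3 constitutive counterparts, so that high values in this mouse were not particular to the 10 genes. Psmb2 and Psma4 had log2 fold changes of 0.19 and 0.18. After the correction for GC and length, 3 rather than 6 of the 11 passed the unadjusted threshold. Among 8 other activators, assembly factors and inhibitors, the assembly chaperone gene Psmg2 was the 1 that passed, at 0.22 on the log2 scale.

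Of 15 other class I heavy chain genes, 14 were tested and H2-Q2 had 0 counts in every library. H2-Q1 passed the unadjusted threshold, at 0.909, 2.07 and 2.66 CPM in WT and 0.864, 1.04 and 1.13 CPM in M92KO mice, a low gene whose log2 fold change was -0.89 (standard error 0.38) and -0.55 without WT mouse 3. M92KO mouse 1 was highest in 9 of the 14 genes, and the largest ratios to the next mouse, picked after their values were seen, were 2.001 for H2-Q6, 1.63 for H2-Q7 and 1.52 for H2-Q4. H2-D1, the other classical heavy chain gene and likewise picked, had 138.2, 143.5 and 162.5 CPM in WT and 188.5, 125.6 and 132.2 CPM in M92KO mice, the same order of groups around the WT range as in H2-K1. The classical, H2-Q and H2-T genes resemble each other and H2-K1 in sequence, so reads may be split between them and their values are uncertain.

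Among 14 chaperone and peptide-trimming genes, 2 passed the unadjusted threshold upwards and 1 downwards. Hspa5, the main chaperone of the endoplasmic reticulum, had 210.9, 214.9 and 245.2 CPM in WT and 246.7, 318.5 and 276.8 CPM in M92KO mice, a log2 fold change of 0.33. Calr, which encodes the calreticulin of the loading complex, was at 0.18 on this scale and the peptidase gene Thop1 at -0.28. The adjusted p-values by edgeR were 0.281 for Hspa5, 0.401 for Calr and 0.316 for Thop1. M92KO mouse 1 was the lowest of the 6 in 8 of these 14 genes, unlike in the 10 genes.

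Among the regulators, the NF-kappaB gene Relb and Rfx5, a subunit of the complex that binds class I and class II promoters, had log2 fold changes of 0.37 and 0.26 and were the 2 of 14 past the unadjusted threshold (adjusted p = 0.294 and 0.353 by edgeR). Nlrc5, the class I transactivator, had 5.43, 4.63 and 6.06 CPM in WT and 11.7, 4.73 and 5.95 CPM in M92KO mice. Its first M92KO value was 1.94-fold above the highest of the others, which is the pattern of Tap1, and its log2 fold change of 0.47 had an adjusted p = 0.589 by edgeR. Irf1 was also highest in M92KO mouse 1 (23.7 CPM, against 14.2 to 19.8 CPM in the other mice). Nlrc5 and Irf1 were singled out after their values were seen, and the list as a whole did not share their step. M92KO mouse 1 was highest in 5 of the 14 regulators (35.7%) and lowest in 2. Its median ratio to the highest other mouse was 0.9606 over the 14.

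Of 11 genes for interferon receptors, their signalling and the interferons themselves, 9 were tested and 0 passed the unadjusted threshold. Jak1 came nearest, with a log2 fold change of 0.20 (adjusted p = 0.470 by edgeR). M92KO mouse 1 was highest in 2 of these 9 genes and lowest in 4, with a median ratio to the highest other mouse of 0.8526. Ifng had 0 counts in all 6 libraries, where 3 counts would be between 0.0629 and 0.0916 CPM. Of 42 interferon-induced genes, 40 were in the table and 39 were tested. Ddx58, an RNA sensor gene, passed the unadjusted threshold with a log2 fold change of -0.25, and the median of the 39 was 0.03. M92KO mouse 1 was highest in 24 of the 39 (61.5%) and lowest in 3, beside 25.1% highest over all genes tested. Its median ratio to the highest other mouse was 1.059 over the 39, beside 0.879 over all genes tested. The single steps given next lie far above that median. The guanylate-binding protein gene Gbp4, picked after its values were seen, had 26.3, 19.6 and 19.6 CPM in WT and 57.1, 20.6 and 23.3 CPM in M92KO mice, a 2.17-fold step over the next mouse. Iigp1, Tgtp2, Tgtp1 and Isg15 were 1.94-fold, 1.85-fold, 1.70-fold and 1.52-fold above the next mouse, while Ifit1, Oas2 and Irf7 were not highest there. These 7 genes were also picked after their values were seen.

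**Figure D4:**
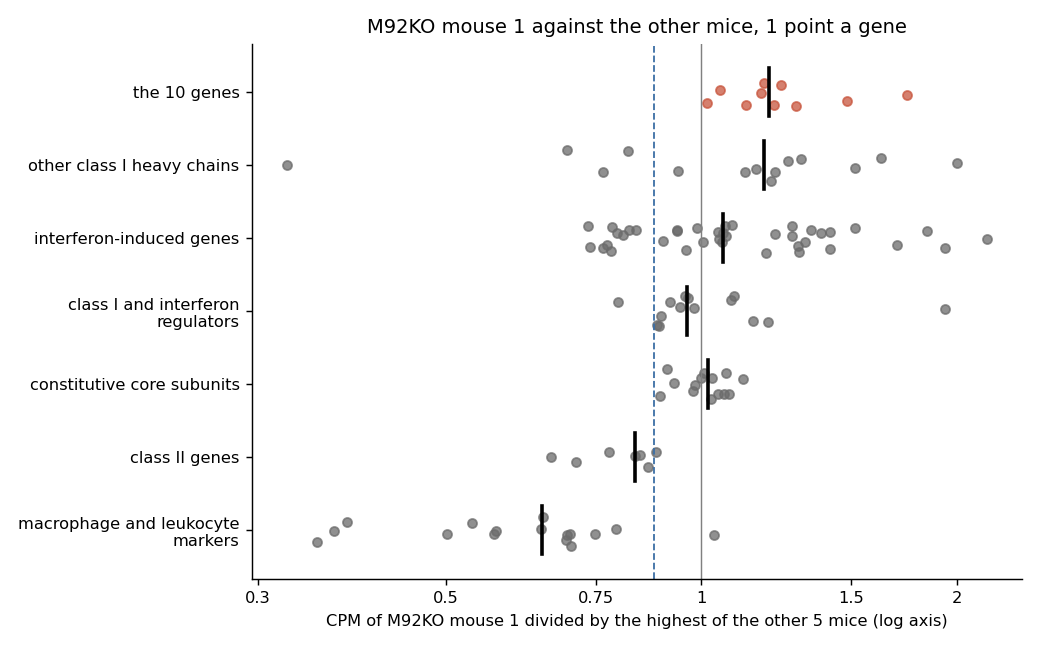
CPM of M92KO mouse 1 divided by the highest CPM among the other 5 mice (log x axis), 1 point for each tested gene and 1 row for each gene group. Black bars are group medians, the solid line marks a ratio of 1 and the dashed line the median of all genes tested (0.879), and all of the 10 genes lie to the right of 1 while the macrophage and leukocyte markers lie mostly to the left.

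Because the muscles were sequenced whole, fewer cells of a type and less RNA per cell cannot be told apart, and markers of other cell types were examined beside the 10 genes. The 7 class II genes of antigen-presenting cells were highest in M92KO mouse 1 in 0 cases. Their summed level was 162.5 to 179.8 CPM in WT and 119.7 to 165.9 CPM in M92KO (145.7 in mouse 1), and H2-Eb1 and Cd74 passed the unadjusted threshold, each at -0.28 on the log2 scale (Cd74 at -0.15 without M92KO mouse 2). The 16 macrophage and leukocyte markers summed to 147.6 to 160.1 CPM in WT, 114.2 CPM in M92KO mouse 1, and 143.7 and 161.6 CPM in the other M92KO mice. M92KO mouse 1 was the lowest of the 6 in 12 of these 16 markers and the highest in 1, and Ptprc (-0.53) and Cd14 (-0.81, and -0.38 without WT mouse 3) passed the unadjusted threshold. The sum of these 16 markers was lowest in M92KO mouse 1. That of the class II genes was lowest in M92KO mouse 2 (119.7 CPM), and that of the lymphocyte markers in M92KO mouse 3 (1.35 CPM). The 12 lymphocyte markers summed to 1.35 to 2.89 CPM in any library, with Cd3d at 0 in the 3 M92KO libraries and Cd8b1 at 0 in 5 of 6. Of these, 3 were tested and 0 passed.

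The 8 muscle fibre markers summed to 109100 to 118000 CPM in WT and 112100 to 115000 CPM in M92KO mice. This was the largest sum of any marker list and in keeping with the Gas label. One of them, Myh2, passed the unadjusted threshold at 0.70, with 2124, 2239 and 1612 CPM in WT and 2018, 3575 and 4099 CPM in M92KO mice. The groups thus overlapped, and the threshold was lost without WT mouse 3, M92KO mouse 2 or M92KO mouse 3. By qPCR in Gas, the paper reported no difference in fibre-type genes, Myh2 among them. Fibroblast markers summed to 1760 to 2323 CPM in WT and 1191 to 1641 CPM in M92KO mice, with M92KO mouse 1 lowest in 7 of 8, and Dcn (-0.33), Col1a2 (-0.53) and Col1a1 (-0.55) passed. Without WT mouse 1, Col1a2 was at -0.29 and Col1a1 at -0.27. Endothelial markers summed to 1281 to 1359 CPM in WT and 1131 to 1336 CPM in M92KO mice, and Tie1 (-0.23) and Flt1 (-0.21) were 2 of 10 past the threshold. Red cell genes summed to 74.0 to 222.6 CPM in WT and 142.9 to 335.9 CPM in M92KO mice (330.1 in mouse 1), with 0 of 5 past the threshold and Hbb-bt nearest at 0.70. Fat cell genes summed to 4.09 to 11.1 CPM in WT and 7.13 to 19.9 CPM in M92KO mice, with 0 of 4 past the threshold and Cidec nearest at 0.95. The part of these cell types in the values of the 10 genes was not tested.

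The 10 genes varied together over the 6 libraries. Pearson's r of each with the mean of the other 9 (standardized log2 CPM) ran from 0.724 for Psme1 and 0.732 for Tapbp to 0.926 for Psmb9 and 0.963 for Psmb8. The genes outside the 10 whose pattern was most like their mean were Josd2 (r = 0.998), Czib (r = 0.997), Rps16 (r = 0.995), the class I gene H2-T23 (r = 0.993), Fau, Tnnc2, Abtb1, Drap1, Rps29 and Prodh (r = 0.988), over 6 libraries. All 10 of these were highest in M92KO mouse 1, by 1.14-fold to 1.36-fold. That follows from the way they were chosen, by likeness to a mean that is itself highest in this mouse. With so few libraries, of which 1 lies far above the others, these coefficients are a description of that library more than of the remaining 5.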

How the data were processed

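RNA from Gas muscle of 3 WT and 3 M92KO mice was sequenced after SMARTer library preparation. The authors deposited raw counts of reads per gene symbol (GRCm38 and mm10 are named in the submitters' processing notes), and the aligner, counter and use of strand are not given in the sources used here. Counts were tested in R 4.3.3 with edgeR 4.0.16 (filterByExpr with a minimum count of 10 and a minimum total count of 15, TMM, glmQLFit and glmQLFTest, no covariate), with Benjamini-Hochberg adjustment over all genes tested. The alternatives were DESeq2 1.42.0, limma 3.58.1 on quantile-normalized log2(value + 1), other filters and scalings, offsets for GC content and length, the replicate number as a block and each library left out in turn. The edgeR, DESeq2 and limma steps were also run on simulated counts with known changes in 200 genes. No outlying library was simulated, so that run cannot show how the steps treat a library such as M92KO mouse 1. Figures and tables were made in Python 3.11.15 with pandas 2.3.3, scipy 1.17.1 and matplotlib 3.10.9. Of the symbols, 25731 matched GENCODE M21 directly, 424 by a synonym and 8559 not, and promoters and microRNAs came from RefSeq on GRCm38.p6. A RefSeq promoter was found for 9 of the 10 genes, without Tap2. The 10 genes and all lists were chosen with earlier results of these data known. The genes named are the 10, their constitutive counterparts, up to 3 genes of each list with the smallest unadjusted p-value under 0.05 (otherwise the nearest), and the 10 with the most similar pattern. Others are said to be picked after their values were seen. Some genes under this rule are left out of the text. Mx1 and Mx2 of the interferon list, and the deleted microRNA, were not analysed here. The labels do not say whether mice shared a litter or batch. The p-values set the difference between genotypes against the spread between mice within a group. A litter or batch shared by the mice of 1 genotype could not be told apart from the genotype.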

Additional observations from a re-analysis of the deposited data

How the results depend on the processing

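Of the alternatives other than leaving out a library, 0 changed a call among the 10 genes. The count of genes whose groups did not overlap fell from 1 to 0 with quantile normalization and to 0 with offsets for GC content and length. Signs near 0 turned: with quantile normalization H2-K1 was at -0.0275 and Psmb5 at -0.0050, and with the offsets Psme2 was at -0.0266, H2-K1 at -0.0271, Psmb6 at -0.0366 and Psmb5 at -0.0489 on the log2 scale. Among the other pathway genes, limma on quantile-normalized values left 1 lower gene instead of 3, and DESeq2 gave 1 gene past the adjusted threshold instead of 0. With the offsets, 4 instead of 2 of the 7 class II genes were lower at the unadjusted threshold. So were 3 instead of 2 of the 16 macrophage and leukocyte markers and 3 instead of 2 of the 10 endothelial markers. Of the 14 other class I heavy chain genes, 2 instead of 1 were lower, while fibroblast markers stayed at 3 of 8. The 112 other pathway genes then had 9 higher instead of 11 and 4 lower instead of 3. The cause of these changes was not tested.

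The replicate numbers were not shown to pair the mice, since deviations of same-numbered mice correlated at 0.0742, 0.045 and 0.0148, and WT mouse 3 correlated best with M92KO mouse 2 (0.0172). With the replicate block, 7 other pathway genes were higher instead of 11, and H2-K1 was at -0.0054. With the block and the offsets, 6 were higher, and Psme2 was at -0.0280, H2-K1 at -0.0440, Psmb6 at -0.0367 and Psmb5 at -0.0484.

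With each library left out in turn, 0 to 1 of the 10 genes passed the unadjusted threshold, and 1 to 4 did not overlap (3 without M92KO mouse 2 and 4 without M92KO mouse 1). Other pathway genes passed upwards in 3 to 19 cases (3 and 4 without WT mice 1 and 2), downwards in 0 to 8 (0 without WT mouse 3, 1 without M92KO mouse 3), and after adjustment in 0 to 2. The log2 fold changes ranged from -0.15 to 0.19 for Psmb8, -0.20 to 0.38 for Psmb9, -0.15 to 0.034 for Psme1, -0.0663 to 0.10 for Psme2, -0.0008 to 0.48 for Tap1, -0.23 to 0.14 for H2-K1, -0.0369 to 0.079 for Psmb6 and -0.0629 to 0.11 for Psmb5. Psmb10 (0.0086 to 0.28), Tap2 (0.0055 to 0.22), Tapbp (-0.11 to -0.0046) and B2m (0.06 to 0.23) kept their sign. The ratios of Psmb8 to Psmb5, Psmb9 to Psmb6 and Psmb10 to Psmb7 ranged from -0.0796 to 0.11, -0.15 to 0.29 and -0.0584 to 0.13. The shares of counting error and of spread between mice in the intervals were not tested. Psmb9, the lowest of the 10, had 99 to 220 counts in a library.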
